A study of Mus musculus with 2 samples.

Results

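The genes described here encode the protein subunits of the cytosolic ribosome, read in mouse spleen on 2 one-colour microarrays. A gene was taken when a probe's accession maps to the symbol Rpsa, Rplp0, Rplp1 or Rplp2, or to Rpl or Rps followed by a digit, without Rps6k kinases, pseudogenes named -ps and Rik symbols. That gave 88 of the 20655 genes with a named probe, and 178 probes. Of the 88 genes, 86 had a probe well above background, by the scanner software's own call, on both arrays. The pattern also took Rps19bp1, a binding partner of Rps19, and Rps23rg1, a retroposed gene, neither of which encodes a ribosomal protein, and Rps4l, which RefSeq lists as a transcribed pseudogene.

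One array held RNA from the spleen of wild-type mice (Loxl3+/+) and the other RNA from spleen labelled as Loxl3 knockout (Loxl3-/-). All animals were male, healthy and untreated, and the spleens were used fresh. Loxl3 encodes an enzyme of the lysyl oxidase family, known for crosslinking collagen and elastin. Age, strain, the way the gene was disrupted and whether RNA of several animals was pooled are not given in the sources used here. The single Loxl3 probe read 117 in wild type and 125 in the other sample, a scaled log2 difference of −0.43 ± 0.29. No source used here says where in Loxl3 the disruption or the probe lies, so this value is a weak check of the label, and the array is called knockout-labelled. With 1 array per group there was no replicate and no test. Each value below describes these 2 arrays, and errors after ± are the software's own per-spot errors carried to the log2 difference.

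A ribosome is built from a small and a large subunit, each an RNA core covered by proteins that are needed in near-equal amounts. The small subunit (Rps proteins) reads the mRNA and the large subunit (Rpl proteins) joins the amino acids. The acidic proteins Rplp0, Rplp1 and Rplp2 form a flexible stalk on the large subunit that recruits elongation factors. Ribosomal protein mRNAs are among the most abundant in lymphocytes. Most start with a short run of pyrimidines, the 5' terminal oligopyrimidine (TOP) tract, through which mTOR signalling sets their translation. Their genes have many processed copies across the genome, so a probe may also read a near-identical copy.

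The stretches around the start of 6 of these genes are shown because the genes lie at the ends of the range described below or are very bright. They are RefSeq sequences of GRCm38.p6, 60 bases before to 20 after the annotated start (the first listed where there are several), with the longest run of at least 8 C or T that touches the 20 bases on either side of the start in capitals.
Rpl4 (chr9:64173327-64173406, + strand): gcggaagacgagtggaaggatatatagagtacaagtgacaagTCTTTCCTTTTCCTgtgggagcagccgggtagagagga
Rps21 (chr2:180257319-180257398, + strand): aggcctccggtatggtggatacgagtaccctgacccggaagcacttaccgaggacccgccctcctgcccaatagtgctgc
Rps18 (chr17:33955646-33955725, - strand): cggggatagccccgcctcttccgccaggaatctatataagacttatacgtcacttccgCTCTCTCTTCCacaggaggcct
Rpl31 (chr1:39367791-39367870, + strand): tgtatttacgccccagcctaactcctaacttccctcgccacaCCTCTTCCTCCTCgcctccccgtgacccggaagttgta
Rps25 (chr9:44407654-44407733, + strand): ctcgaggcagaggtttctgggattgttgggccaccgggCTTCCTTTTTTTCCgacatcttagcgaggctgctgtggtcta
Rplp2 (chr7:141447591-141447670, + strand): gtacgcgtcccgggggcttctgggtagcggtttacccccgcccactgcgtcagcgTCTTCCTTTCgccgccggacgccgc
Rpl4, Rps21 and Rps18 were the lowest ribosomal subunit genes on the knockout-labelled array, Rpl31 and Rps25 were among the highest, and Rplp2 was among the brightest. Rps21 has no such run near its first listed start. Neither do Rps19, at the high end, and Rpl41 and Rpl10, among the brightest, which are not shown. In Rpl4, Rpl31 and Rps25 the run ends before the annotated start, so a run counted here need not lie in the mRNA. Of the 67 members with a RefSeq promoter window, 35 (52.2%) had a run touching the 20 bases on either side of a listed start. The share was 23.7% of 27025 genes. The core of the ETS factor site, CCGGAAG or CTTCCGG on the other strand, stood in the windows of 26 members (38.8%) and of 9.93% of all genes. Among the 10944 genes with a window that were measured here, 1975 had it. The window runs from 250 bases before to 50 after a start, and CTTCCGG can overlap a pyrimidine run. Among 57 measured subunit genes with a window, the median log2 difference was −0.48 with a run (30 genes) and −0.58 without (27 genes). Measured from the curve on signal level described below, the medians were 0.01 and −0.06. The software's median error was 0.20.

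Ribosomal protein genes, like other very bright genes, gave almost the same processed signal on both arrays. Most spleen genes were brighter on the knockout-labelled array. Before any scaling, the median log2 difference (knockout-labelled minus wild type) was 0.01 over the 86 members and 0.43 over all 13714 genes measured. Unscaled signals were lower on the knockout-labelled array for 41 members, against 12.2% of all genes. At mean signals over 64000, the unscaled median was −0.02 over 53 members and −0.03 over 99 other genes. From 16000 to 64000 it was 0.04 over 24 members and 0.17 over 608 other genes. Scaling each array on its 75th percentile, a signal of 974 and 1400, removes a shift of 0.52 and so turns the median of the members to −0.51. On that scale 83 of 86 members were below 0, against 59.2% of all genes, and 4 were at least 2-fold lower, against 2.26%. No member was at least 2-fold higher, against 2.57% of all genes.

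Over all genes the scaled difference went down with signal level. A smooth curve through all probes above background passed from 0.11 at a signal of 100 through −0.02 at 1000 and −0.24 at 10000 to −0.50 at 100000. Only 9 of the 86 members had a mean signal under 16000, too few to follow the trend among members alone. Of the 86 members, 53 had a mean signal over 64000, and their median was −0.55. The 99 other genes that bright had a median of −0.55 as well, and 97 of them were below 0. Between 16000 and 64000, the median was −0.48 over 24 members and −0.35 over 608 other genes. The curve fell within this range too, and signals in it were not matched more closely. Within the members' own middle range of signal, from 43621 to 108720, the medians were −0.50 for 42 members and −0.50 for 157 other genes. In that range 41 of the 42 members were below 0, against 96.2% of the other genes, and 2 of the 42 were at least 2-fold lower, against 4.46%.

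**Figure D1:**
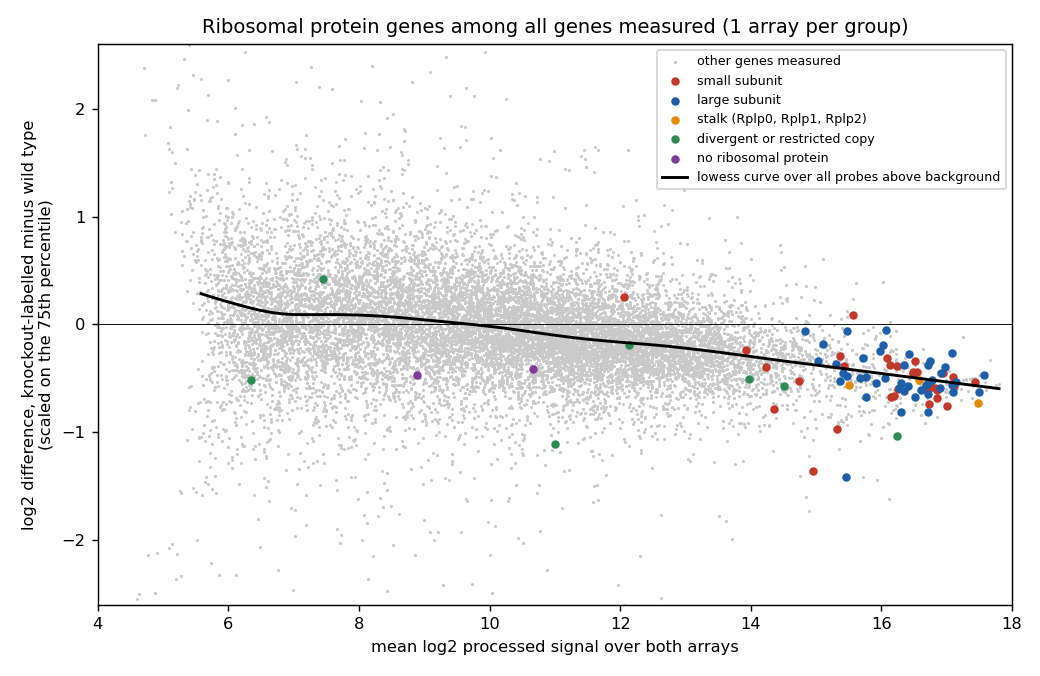
Scaled log2 difference (vertical axis) against the mean log2 processed signal over both arrays (horizontal axis, a log scale) for the brightest probe of each gene. Ribosomal protein genes are coloured by role, other genes measured are grey (67 lie outside the axis) and the black line is the smooth curve. Most members sit at the bright end on the descending curve, with a few genes clearly below it.

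Measured from the curve, the members were spread on both sides, with a median distance of −0.05, 51 below it (52.0% of all genes were) and 35 above. Of the 86 members, 78 lay within 0.5 of the curve, as did 79.4% of all genes. Only Rpl4 and Rps4l lay at least 2-fold below it, where 2.33% of all genes did, and none lay 2-fold above, where 2.22% did. Of the 86 members, 54 were below 0 with quantile normalization, 53 in the authors' deposited value table and 41 with unscaled signals. The shares of all genes were 53.2%, 53.1% and 12.2%. The direction for the group thus depends on the scaling. Member probes are 0.452% of all probes and took 9.01% of the summed signal in wild type and 8.11% in the knockout-labelled sample.

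**Figure D2:**
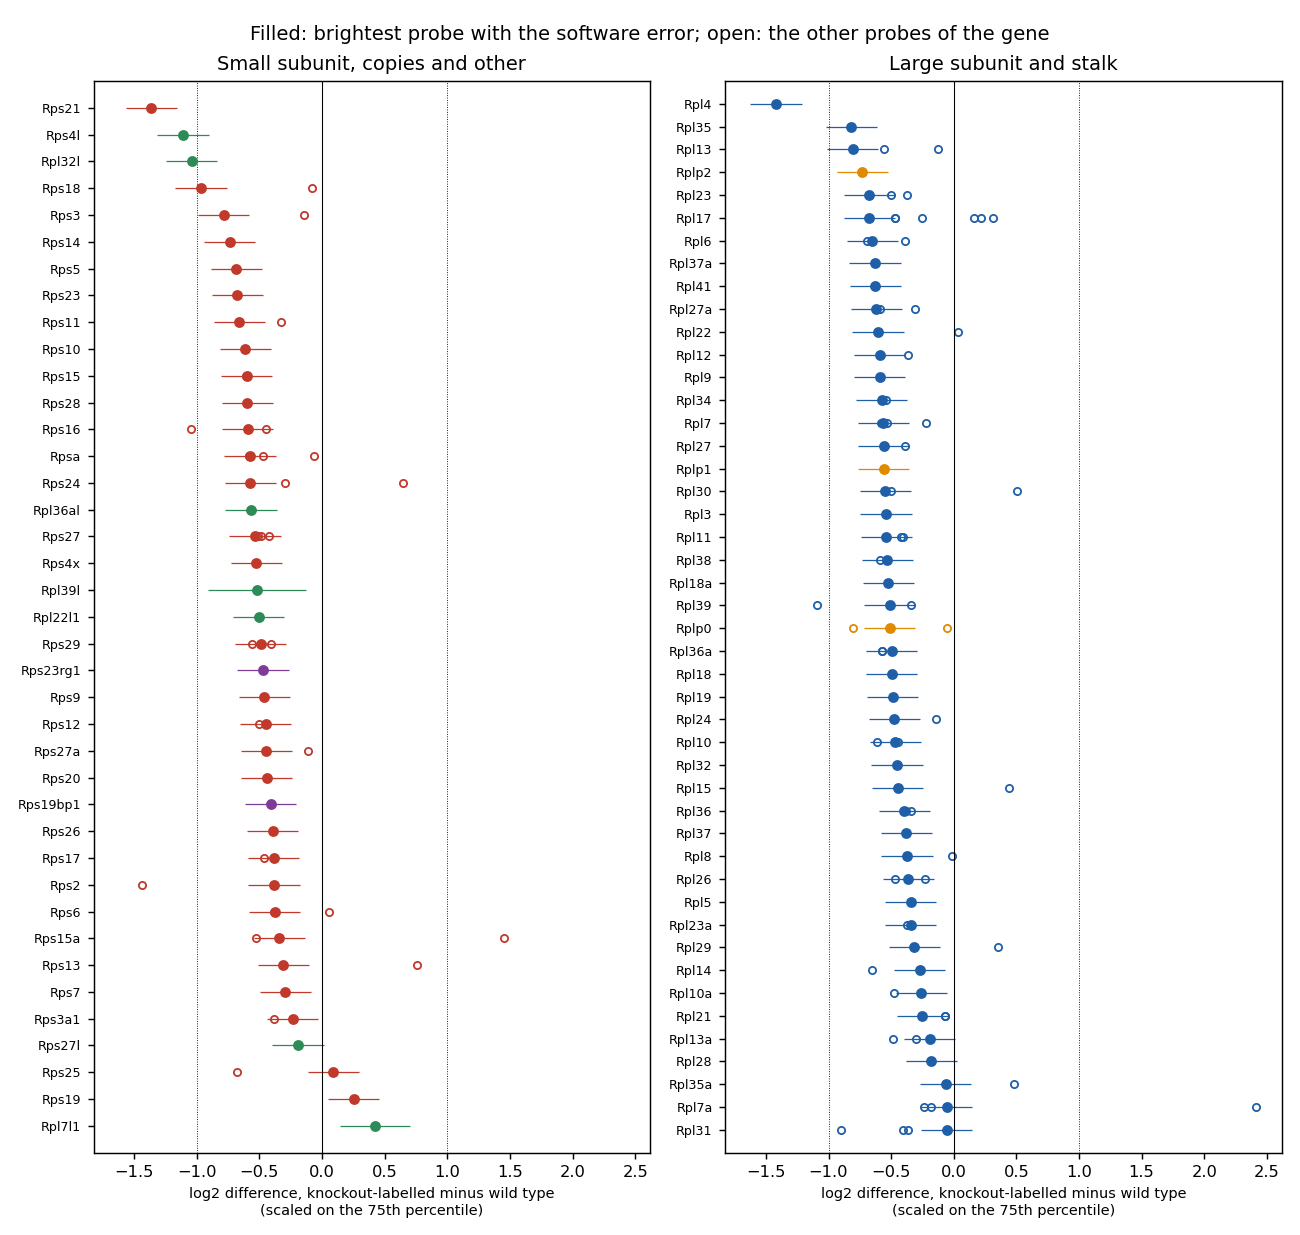
Scaled log2 difference of every probe above background (horizontal axis) for all but 1 of the 86 measured members (vertical axis), ordered by difference within each panel (left: small subunit in red, divergent copies in green and other symbols in purple; right: large subunit in blue and stalk in orange). Filled points are the brightest probe with the software's error as a bar, open points are the gene's other probes, and dotted lines mark 2-fold. Rpl4 and Rps21 stand apart at the low end, and open points of Rpl7a and Rps15a lie past 2-fold on the high side.

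Small subunit genes had a median of −0.53 over 31 genes, with 29 below 0. Below 0 were also 59.2% of all genes and 96.2% of other genes in the members' middle range of signal. Rps21, a small protein of the subunit's surface, was the lowest, with signals of 42558 in wild type and 23768 in the knockout-labelled sample. Its scaled difference was −1.36 ± 0.20, and it has a single probe. Rps18, a protein of the small subunit's head, read 47638 and 35007, a difference of −0.97. The uS3 protein gene Rps3, at the mRNA entry channel, read 22998 and 19169, a difference of −0.79, with a second probe at −0.14. These 3 genes were the lowest of the small subunit, and the signals of their brightest probes were lower in the knockout-labelled sample before scaling too. Rps14 read 117475 and 101109, a difference of −0.74, or 0.23 below the curve at its signal.

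At the other end of the small subunit, Rps19 and Rps25 were the only genes of the 31 above 0 on the scaled values of the brightest probe. Rps19, which matures the small subunit and is the gene most often mutated in human Diamond-Blackfan anaemia, read 3258 and 5573. Its difference was 0.25 ± 0.20, or 0.42 above the curve, and its wild-type signal was the lowest of the 31. Rps25, known for its part in initiation at viral internal entry sites, read 39122 and 59722 with its brighter probe. That is a difference of 0.09 ± 0.20, or 0.51 above the curve. Its dimmer probe, with signals of 430 and 385, was at −0.68, so its probes differ in direction. Rps3a1 read 14120 and 17238, a difference of −0.23, or 0.06 above the curve. Rps6, the classic substrate of S6 kinase, read 68529 and 75658, a difference of −0.38, and its 3 probes ranged from −0.39 to 0.06. Rpsa, also known as the laminin receptor and the gene of human isolated congenital asplenia, read 112520 and 108437, a difference of −0.58 ± 0.20. That lies 0.06 below the curve.

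Large subunit genes other than the stalk had a median of −0.50, and all 43 were below 0 on this scale. The share was 59.2% of all genes and 96.2% of other genes in the members' middle range of signal. Before scaling, 23 of the 43 were brighter on the knockout-labelled array, as were 12047 of all 13714 genes. Rpl4, a core protein that lines the exit tunnel, was the lowest of all 86 members. It read 61389 in wild type and 32984 in the knockout-labelled sample, a scaled difference of −1.42 ± 0.20, from 1 probe. Rpl35, at the exit of the tunnel, read 118494 and 96633, a difference of −0.82. Rpl13 read 89136 and 73138, a difference of −0.81, and its other probes were at −0.55 and −0.13. The brightest probes of all 3 were dimmer in the knockout-labelled sample before scaling.

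At the high end of the large subunit, the brightest probes read higher in the knockout-labelled sample before scaling and close to equal after it. Rpl31, also at the tunnel exit, read 58355 and 80704, a difference of −0.05. Rpl7a read 38711 and 53455, a difference of −0.06. Rpl35a read 24876 and 34190, a difference of −0.06. With their brightest probes these 3 lay 0.30 to 0.41 above the curve. The other probes of Rpl7a and Rpl35a lay above it too. The other Rpl31 probes, at −0.90, −0.40 and −0.37, lay below it. Rpl28 read 31295 and 39741, a difference of −0.18. Rpl13a, known in human cells for silencing inflammatory mRNAs when released from the ribosome, read 59557 and 74872, a difference of −0.19. Its other probes, at −0.48 and −0.30, lay below the curve.

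Some large subunit genes are also known for roles beyond the core of the ribosome. Rpl5 and Rpl11, which carry the 5S RNA and hold back Mdm2 when assembly fails, were at −0.34 and −0.54, within 0.04 of the curve. Rpl22, needed for T cell development in mice, read 102249 and 96591, a difference of −0.60, or 0.10 below the curve, with a second probe at 0.03. Rpl38, which in mice favours translation of Hox mRNAs, read 145552 and 144809, a difference of −0.53. The brightest members, Rpl10, Rpl41, Rplp2, Rps27 and Rpl38, ranged from −0.73 to −0.47. Signals of different probes depend on the probe, so they do not rank the genes by mRNA level.

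The 3 stalk genes ranged from −0.73 to −0.51. Rplp0, the base of the stalk, read 97332 and 98103, a difference of −0.51, and its other 2 probes were at −0.81 and −0.05. Rplp1 read 47159 and 46033, a difference of −0.56. Rplp2 read 196570 and 170212, a difference of −0.73. All of them were below the curve, by 0.01 to 0.16, less than the software's error of 0.20. Rps27a, whose protein is made as a fusion with ubiquitin, read 89539 and 94495, a difference of −0.45. The non-member Fau, which encodes a ribosomal protein fused to a ubiquitin-like protein, read 160059 and 162264, a difference of −0.50.

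Divergent or tissue-restricted copies ranged from −1.11 to 0.42 over 7 measured genes, with a median of −0.52. Rps4l read 2509 and 1670, a difference of −1.11 ± 0.20, while Rps4x, the X-linked gene that supplies the protein, read 27230 and 27148, a difference of −0.53. Rpl32l, a near copy of Rpl32, read 92856 and 64907, a difference of −1.04, and Rpl32 itself was at −0.45. Rps4l and Rpl32l each have 1 probe, and how far these probes also read Rps4x or Rpl32 was not tested. Rpl7l1, a relative of Rpl7, had dim signals of 125 and 241 and a difference of 0.42 ± 0.28, the highest of the members on this scale. With normexp background correction it was at 0.07 and with quantile normalization at 0.31, in both cases below Rps19 and Rps25. Rps27l, a p53-responsive relative of Rps27, was at −0.19, Rpl22l1 at −0.51 and Rpl36al at −0.57. Rpl39l, a copy used in testis, read 81.5 and 81.8. Rpl3l, of striated muscle, and Rpl10l, of testis, were not well above background on either array. Rps19bp1 and Rps23rg1 were at −0.41 and −0.47.

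Probes of the same gene often differed by more than the technical error. The Rpl23 probe printed on 10 spots gave a difference of −0.37 ± 0.10 (SD over spots of 1 array pair), whereas in 20 of the 51 members with over 1 probe above background the probes lay over 0.5 apart. Over all 3232 genes with several such probes that share was 40.3%. In 11 members the probes had opposite signs and lay over 0.5 apart, against 29.3% of all such genes. Of the 171 member probes above background, 155 were below 0 (54.6% of all probes of named genes), 7 were at least 2-fold lower (2.09%) and 2 at least 2-fold higher (3.07%). The dimmest probe of a gene was higher than the brightest in 32 of 51 members, against 71.5% of all such genes. Over the 26 members whose signals were at least 4-fold apart, the dimmest minus the brightest probe had a median of 0.17, or −0.17 when each was measured from the curve. Across the 171 probes Spearman's rho of difference on signal level was −0.39. These probes share the arrays, and several share a gene.

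**Figure D3:**
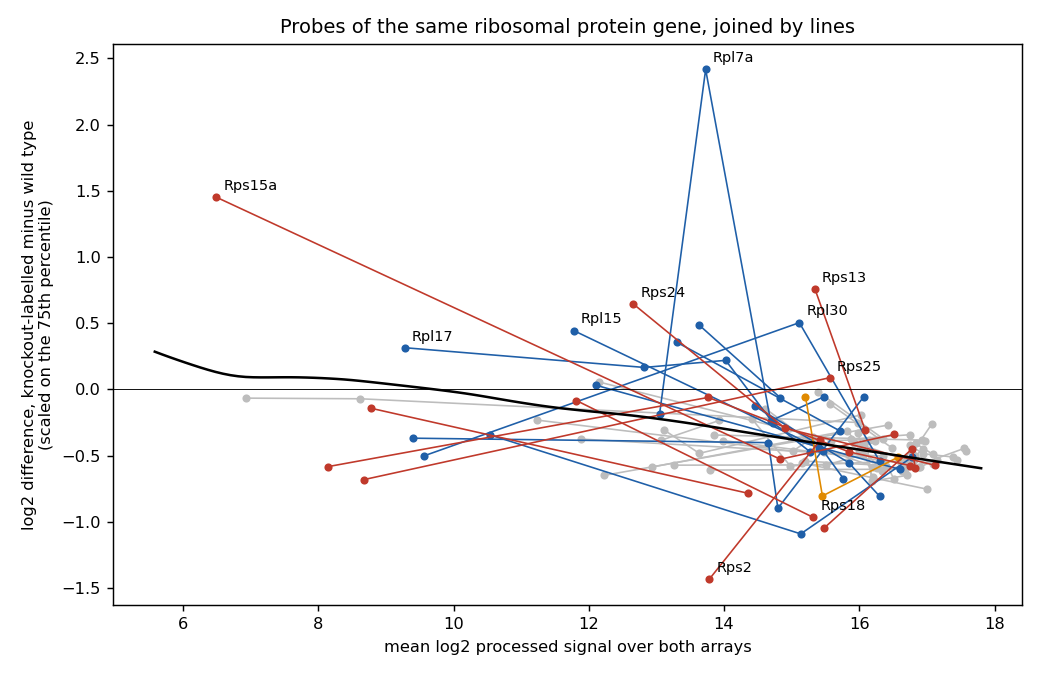
Scaled log2 difference (vertical axis) against mean log2 processed signal (horizontal axis) for members with several probes above background, each gene's probes joined by a line. Lines are coloured where the probes lie over 0.5 apart (red small subunit, blue large subunit, orange stalk) and grey otherwise, and the black curve is that of all probes. One Rpl7a probe and one Rps15a probe lie far above their gene's other probes, and one Rps2 probe lies far below.

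The widest gap was in Rpl7a. One of its 4 probes read 4897 in wild type and 37544 in the knockout-labelled sample, 7.67-fold higher before scaling and 2.42 ± 0.20 on the scaled log2 scale. The other 3 Rpl7a probes ranged from −0.24 to −0.06. Only 1.05% of all genes with several probes had probes over 2 apart. Rps15a had a dim probe at 45.3 and 178, a difference of 1.45 ± 0.36, and its bright probes were at −0.34 and −0.53. Rps13 had one probe at 26634 and 64782, a difference of 0.76, against −0.31 for the brighter one. Rps2 went the other way, with 19292 and 10252 on its dimmer probe, a difference of −1.43, against −0.38 on its brighter probe.

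Some of these probes name different transcripts. For Rps24, whose mRNA is spliced to alternative last coding exons, the probes for 3 transcripts were at −0.57, −0.29 and 0.65. The last of them read 4304 and 9673. For Rpl30, 2 probes assigned to the same transcript were far apart, at −0.55 and 0.50. Rpl17, with the most probes (7), ran from −0.67 on the brightest to 0.31 on the dimmest. Rpl15, Rpl29, Rpl22 and Rpl35a likewise had a bright probe below 0 and a dimmer one above, at 0.44, 0.35, 0.03 and 0.48. Rpl39 and Rps16 each had 1 probe past 2-fold lower, at −1.09 and −1.05, while their brightest probes were at −0.51 and −0.59. Rps18 was at −0.97 with the probe above and at −0.08 with the other. For Rpl31 the brightest probe was at −0.05 and another at −0.90.

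Genes mutated in human Diamond-Blackfan anaemia, an inherited failure of red cell production, had a median of −0.45 over 19 genes. Of these, 18 were below 0, against 83 of all 86 members and 59.2% of all genes. None passed 2-fold, which 4 of the 86 members did. All 19 lay within 0.5 of the curve, as did 78 of the 86 members and 79.4% of all genes. Rpl35, at −0.82, was the lowest and Rps19, at 0.25, the highest.

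Other genes of translation were compared at their own signal levels. Of 20 genes of elongation factors and other mRNAs with a TOP tract, 19 were below 0 and none passed 2-fold. Of all genes, 59.2% were below 0, 2.26% at least 2-fold lower and 2.57% at least 2-fold higher. At signals from 16000 to 64000, which hold the list's median signal, 91.8% of other genes were below 0. The 20 genes had a median of −0.28 and a median distance from the curve of 0.06. Among them Tpt1, a TOP mRNA of growth control, read 181293 and 161806, a difference of −0.69, the ribosome-bound scaffold Rack1 was at −0.52, and the elongation factors Eef1a1 and Eef2 were at −0.27 and 0.05. Mitochondrial ribosomal protein genes, which serve the separate ribosome of mitochondria, had a median of −0.26 over 77 genes, with 68 below 0 and none past 2-fold. At signals from 1000 to 4000, which hold the median signal of these genes, 63.4% of other genes were below 0. Their median distance from the curve was −0.11, and 59 of 77 lay below it, against 52.0% of all genes.

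Markers of several cell types differed between the arrays, and in whole tissue fewer cells of a type and less RNA per cell cannot be told apart. Granulocyte precursor markers were lower on the knockout-labelled array in 7 of 7 genes, with a summed scaled signal of 50.5 in wild type and 9.64 in the knockout-labelled sample (in units of the scaling signal). Platelet markers were lower in 5 of 5 genes (44.1 and 13.0) and proliferation markers in 6 of 6 (30.6 and 18.1). On this scale 59.2% of all genes were below 0. Before scaling, 5 of the proliferation markers were lower and 1 was higher. Exocrine pancreas markers were higher in 7 of 7 genes, with sums of 16.9 and 147. B cell markers summed to 143 and 116, with 3 of 6 genes below 0 and a median of 0.08. T cell markers summed to 42.4 and 36.3, with 4 of 6 below 0. Red pulp macrophage markers summed to 94.7 and 86.3, with 3 of 6 below 0, and erythroid markers to 27.6 and 24.2, with 3 of 7 below 0 and a median of 0.06. In these 4 lists single genes thus lay on both sides of 0. All 6 B cell and all 6 T cell markers were above background on both arrays. The part of these cells in the ribosomal protein values was not tested.

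**Figure D4:**
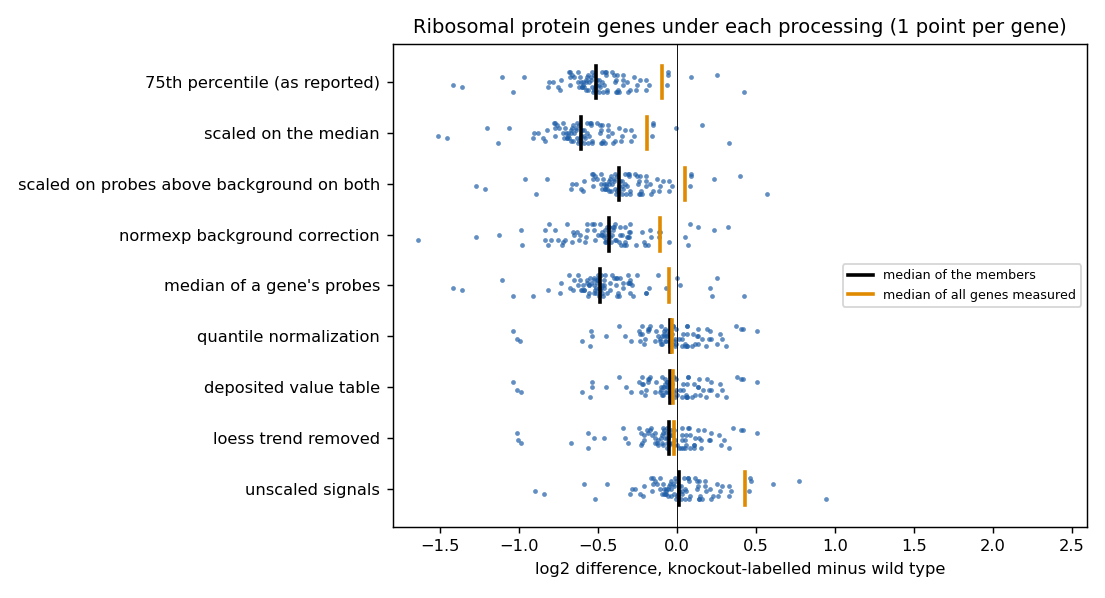
Log2 difference of each measured ribosomal protein gene (blue points, horizontal axis) under 9 ways of processing the arrays (vertical axis), with the median of the members in black and that of all genes measured in orange. The median of the members lies 0.32 to 0.43 below that of all genes where the trend on signal level is kept, and both medians lie near 0 where it is taken out.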

How the data were processed

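The authors deposited 2 scanner files of linear intensity values, 1 per genotype, made with Feature Extraction 11.0.1.1 (protocol GE1_1100_Jul11, probe build mm9) per the file headers, and a value table. The corrections behind the processed signal are not given in the sources used here. The value table that the authors deposited holds log2 values, both columns with a median of 6.71, and its differences correlated with those of quantile-normalized scanner signals at 1.00. It was used as an alternative. The software's calls of background, saturation and outliers were used as deposited by the authors.

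Of 44397 spots per array, 1377 were controls, 110 and 132 were outliers left out, and none was saturated. Log2 processed signals were averaged per probe and scaled on each array's 75th percentile. Accessions were matched without versions to RefSeq of GRCm38.p6, which named 27226 of 39420 probes. A gene was its brightest probe among those well above background on at least 1 array. The curve is a lowess fit (span 0.3, statsmodels 0.14.6) over all such probes. Normexp (offset 50, limma 3.58.1) used the spot and background medians. The steps were tested on simulated data.

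Members were named by a rule: the 10 lowest and 10 highest, the 5 brightest, the stalk genes, genes with known further roles, divergent copies, members with discordant probes or no signal, and symbols of no ribosomal protein. Members and lists were chosen with earlier results of these data known. Rpl32l was added as a divergent copy, and Rps2, Rps16, Rpl39, Rpl31, Rps18 and Rpl13 probes were singled out, after their values were seen. Values of 1 member and of 1 gene of another list are not reported here. No p-value was computed, and the number of arrays limits the precision.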

Additional observations from a re-analysis of the deposited data

How the results depend on the processing

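No paired analysis was possible because each group has 1 array. The median over members, −0.51 as reported, was −0.044 with quantile normalization, −0.051 with the loess trend removed, −0.042 with the deposited value table and 0.011 unscaled, an alternative chosen after seeing the data. In the same order the median over all Rps and Rpsa symbols, copies included, was −0.060, −0.062, −0.057 and 0.031. With scaling on the 75th percentile it was −0.49. The median over all Rpl and Rplp symbols was −0.035, −0.051, −0.032 and 0.010, against −0.51. The members below 0 numbered 54, 51, 53 and 41 of 86, against 53.2%, 52.0%, 53.1% and 12.2% of all genes. The first 3 of these settings take out the trend on signal level by construction. The count at least 2-fold lower, 4 as reported, was 2 with each of those 3, against 2.22%, 2.33% and 2.22% of all genes. It was 2 with scaling on probes above background on both arrays, which moved the median of all genes by 0.15, against 1.55% of all genes. Without divergent copies and symbols of no ribosomal protein, chosen after seeing the data, it was 2, against 2.26%. Unscaled it was 0, against 0.744%. Rpl4 was among them in each setting but the unscaled one. With no filter 2 members were at least 2-fold higher, Rpl3l and Rpl10l, both not above background. Of all 20655 genes, 613 were at least 2-fold higher with no filter. Normexp, the array median as scale, the median of a gene's probes, the filter on both arrays and outlier spots kept left the medians within the software's error and the counts within 1.5 times. Of the 46 members named by rule, the median of probes moved 12 by more than the software's error, normexp moved 7, and 39 moved under each of quantile normalization, loess and the deposited values. The sign of 33 members differed in some setting, and 51 were below 0 in all, the unscaled one left aside. Scaling on spike-in controls was not run, since 12 and 3 of 320 such spots were above background.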

Other observations

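Ribosome biogenesis factors, which process ribosomal RNA and assemble the subunits, were spread on both sides of 0. Of 35 measured, 25 were below 0 and 10 above, none passed 2-fold, and the median was −0.13, or −0.06 from the curve. Below 0 were also 59.2% of all genes. At signals from 1000 to 4000, which hold the list's median signal, 63.4% of other genes were. The nucleolar GTPase gene Gnl3 was the highest, with signals of 623 and 1560 and a difference of 0.80. Ubtf, the RNA polymerase I activator, was the lowest, with 80513 and 65558 and a difference of −0.82, or −0.35 from the curve. The nucleolar protein gene Ncl was at 0.00, and the snoRNP genes Fbl and Nop58 at −0.50 and −0.48.

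Regulators of ribosomal protein synthesis were likewise on both sides, with 6 of 12 below 0, against 59.2% of all genes. The TOP mRNA binding protein gene Larp1 read 10356 and 10533, a difference of −0.50, the S6 kinase gene Rps6kb1 was at −0.56, Mtor at 0.32 and Myc at 0.15. Of the 12, only Rps6kb2 passed 2-fold, with dim signals of 54.0 and 175 and a difference of 1.17 ± 0.38. Of all genes, 2.57% were at least 2-fold higher. Rps6kb2 and Tsc2 were not well above background in wild type.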
